A study of Mus musculus with 42 samples.

Results

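The Bcl2 family genes described here are Bok, Hrk, Bcl2, Bcl2l1, Bcl2l11, Bax, Bak1, Pmaip1, Bbc3 and Mcl1, which are 10 of the 20972 named genes on the array. Each was found by the RefSeq accession that its probes carry, and was read from its brightest probe over all 42 arrays. The genes were chosen by their family and by the log2 values of their probes on these arrays, with the differences under EPZ6438 known, so the values under EPZ6438 are given as a description, without p values. The limma p values of the members in the untreated series come from those same arrays. They set each difference against its spread and are not independent tests.

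Bcl2 family proteins decide whether the outer membrane of the mitochondrion is opened, the step that releases cytochrome c and starts caspase activation. Bcl2, Bcl2l1 (BCL-XL) and Mcl1 hold cells alive by binding the other members. Bax and Bak1 form the pores, and Bok is a related protein that is able to act without them. Hrk, Bcl2l11 (BIM), Pmaip1 (NOXA) and Bbc3 (PUMA) are BH3-only proteins, which neutralise the pro-survival members or activate the effectors. Pmaip1, Bbc3 and Bax are known targets of p53. Pluripotent cells are known to be primed for apoptosis.

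Total RNA was measured on Agilent one-colour arrays in mouse ESCs of the HRS/Gsc-GFP line, which reports Gsc by GFP (G) and Hhex by Redstar (H), and in their derivatives on the way to anterior definitive endoderm (ADE). The 11 untreated groups were mESCs (ESC), unsorted d2 cells, and populations sorted by the reporters, namely d3 G- and G+, d4 G- and G+, d5 G-, Glow and Ghigh, and d6 G+H- and G+H+. The 3 groups of the inhibitor series were d6 cultures for which the labels name no sort. In Control both the ESC culture and the differentiation were in DMSO, in ES_EPZ the ESCs were given EPZ6438 before a differentiation in DMSO, and in ADE_EPZ DMSO-treated ESCs were differentiated in EPZ6438. EPZ6438 inhibits EZH2, the enzyme of PRC2 that methylates lysine 27 of histone H3, and was used at 2.5 uM. Each group had 3 arrays, described as independent experiments, and all came from 1 reporter line. The untreated and inhibitor series were on different slides and were read with different versions of the scanner software, so that series and batch cannot be told apart.

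The arrays had 24504 to 40428 probes well above background and 0 saturated spots. Arrays of a group correlated at 0.979 to 0.993 over all probes. In d6 G+H+ against ESC, 5 of 5 pluripotency markers fell, while 4 of 4 streak and 5 of 5 endoderm markers rose. These are bulk samples, in which fewer cells of a type and less RNA per cell cannot be told apart.

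The promoters of the 3 members that were higher at d6 than in ESCs or that differed most under EPZ6438 are shown because PRC2 is known to bind CG-rich promoters. Each sequence is the 250 bases before the RefSeq start in GRCm38.p6, 5′ to 3′ on the gene's strand, with CG dinucleotides in capitals. Bok lies at chr1:93685325-93685574 (plus strand), Hrk at chr5:118169514-118169763 (plus strand) and Bcl2 at chr1:106714291-106714540 (minus strand).
Bok: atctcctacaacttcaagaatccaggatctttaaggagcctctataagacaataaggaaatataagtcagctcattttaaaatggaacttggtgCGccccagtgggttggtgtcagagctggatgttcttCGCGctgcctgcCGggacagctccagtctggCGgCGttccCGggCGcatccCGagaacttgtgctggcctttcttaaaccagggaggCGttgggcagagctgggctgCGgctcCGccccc
Hrk: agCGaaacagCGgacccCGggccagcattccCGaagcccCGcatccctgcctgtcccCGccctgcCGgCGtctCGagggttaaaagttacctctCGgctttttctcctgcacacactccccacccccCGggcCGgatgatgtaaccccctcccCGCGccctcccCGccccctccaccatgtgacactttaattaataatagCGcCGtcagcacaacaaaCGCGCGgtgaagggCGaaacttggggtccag
Bcl2: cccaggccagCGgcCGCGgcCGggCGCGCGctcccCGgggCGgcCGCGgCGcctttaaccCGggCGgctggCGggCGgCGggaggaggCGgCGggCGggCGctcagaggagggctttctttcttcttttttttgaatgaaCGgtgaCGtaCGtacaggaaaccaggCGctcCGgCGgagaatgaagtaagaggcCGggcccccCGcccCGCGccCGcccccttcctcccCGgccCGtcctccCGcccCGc
The Bok stretch holds 12 CG dinucleotides, the Hrk stretch 21 and the Bcl2 stretch 36. In windows extended by 50 bases past the start the numbers were 16, 29 and 44, against a median of 7 over 32851 promoter windows. At least as many were found in 33.0% of all windows for Bok, 12.9% for Hrk and 2.25% for Bcl2. The motif GGGCGG, sought on both strands, was in the windows of these 3 genes and in 35.7% of all windows, and TATAAA was in none of the 3 and in 13.6% of all. Of the 10 members 9 had a window, and the CG number of the 14 windows ran from 1, in 1 of 3 windows of Bcl2l1, to 44. No chromatin data were analysed here.

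Over the 14 groups the members differed widely in how far their level moved. The group means of Hrk spanned 5.03 on the log2 scale, those of Bok 3.41 and those of Pmaip1 2.65, spans that 1.42%, 5.57% and 9.77% of all genes reached. Bbc3 spanned 1.74, Mcl1 1.67, Bcl2l11 1.66 and Bcl2 1.57. The steadiest members were Bax with 1.13, Bcl2l1 with 1.01 and Bak1 with 0.71, and 65.2% of all genes spanned at least as much as Bak1.

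A gene was called where limma's adjusted p was at most 0.01 and the log2 fold change at least 1.5 in size. Against ESC, 4 of the 10 members were called in each d6 population, 2 higher and 2 lower. In d6 G+H+ 5.79% of all genes were called higher and 5.33% lower, and in d6 G+H- 5.1% in each direction. The median size of the members' log2 change in d6 G+H+ was 1.21, against 0.34 over all genes, and since values of these arrays were used in choosing the members nothing is read from the counts or from this gap. Mcl1 was the 1 member called in either d5 Gsc-positive population, where 4.22% (Glow) and 4.56% (Ghigh) of all genes were called lower. Bbc3 was the 1 member called in d3 G+ and in d4 G+, where 3.7% and 4.38% were called lower. These comparisons share the 3 ESC arrays. In d5 Ghigh the arrays of 1 member lay above and those of 7 below all ESC arrays, as did 21.3% and 19.9% of all genes. In d6 G+H+ 3 members lay above and 4 below, against 22.4% and 22.8% of all genes.

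With no fold threshold and a limma adjusted p of 0.05, more members passed against ESC. In d2 they were 2 (10.3% of all genes passed), in d3 G- 4 (14.4%), in d3 G+ 6 (26.5%), in d4 G- 2 (16.3%) and in d4 G+ 5 (27.7%). At d5 they were 3 in G- (19.5%), 7 in Glow (28.4%) and 7 in Ghigh (29.4%). At d6 they were 6 in G+H- (35.1%) and 7 in G+H+ (37.4%). Most were lower, among them 6 of the 7 in d5 Ghigh, where Bcl2 was the higher one. Between cells sorted on the same day there were 1 at d3 (7.24%), 2 at d4 (8.66%) and 2 at d5 (7.79%), all lower in the Gsc-positive cells, and at d6 there were 0 (0.00477%).

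**Figure D1:**
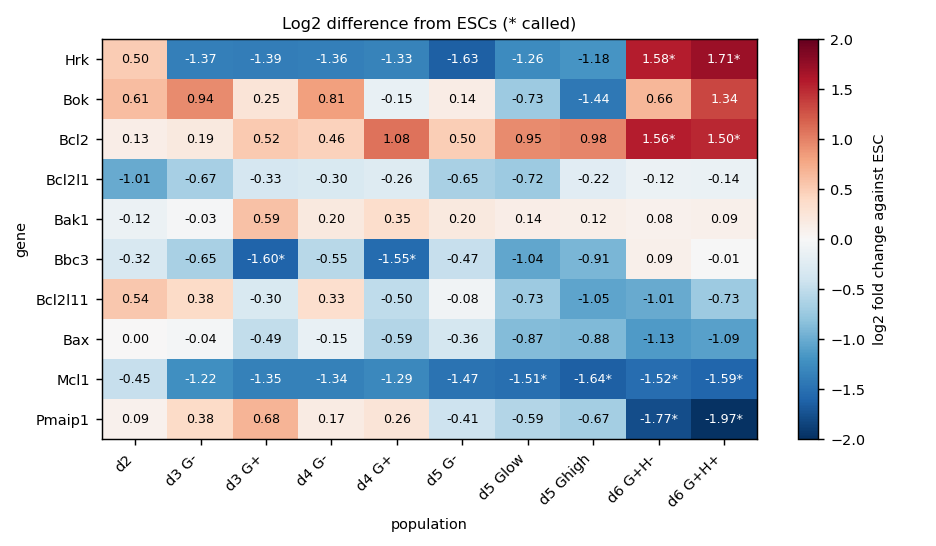
Log2 fold change against ESC (colour and number) of the 10 members (rows) in the 10 differentiating populations (columns), each from the means of 3 arrays, with an asterisk where limma called the change. Mcl1 is below 0 in every column, Bcl2 is above 0 in every column and peaks at d6, and Hrk is below 0 from d3 to d5 and above 0 at d6.

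Among the pro-survival genes, Mcl1 was lower than in ESCs in every population and Bcl2 was highest at d6. Mcl1, whose protein is short-lived and required in the early embryo, read 14.28, 14.10 and 14.41 (log2 intensity) on the ESC arrays. It read 13.59, 13.94 and 13.89 at d2, and all 27 arrays of the sorted populations lay between 12.36 and 13.16. Every array from d2 onwards was thus below every ESC array. Mcl1 differed from ESC by -1.22 to -1.47 on the log2 scale in the d3 and d4 populations and d5 G-, with limma adjusted p of 1.98e-07 or less but short of the fold threshold. It fell by 1.51 ± 0.14 (SE, n = 3 against 3 arrays, limma adjusted p = 4.29e-10) in d5 Glow and by 1.64 ± 0.14 (5.41e-11) in d5 Ghigh. At d6 it fell by 1.52 ± 0.14 (limma adjusted p = 1.83e-10) in G+H- and by 1.59 ± 0.14 (5.96e-11) in G+H+. The second Mcl1 probe gave -1.41 in d5 Ghigh, short of the fold threshold, and -1.79 and -2.01 at d6. The change lies near the fold threshold: without ESC replicate 3 it was -1.43 in d5 Glow and -1.45 in d6 G+H-, neither of them called. The d5 Glow call was also lost without ESC replicate 1 (-1.498), d5 Glow replicate 1 (-1.35) or d5 Glow replicate 2 (-1.4997), and the d6 G+H- call without d6 G+H- replicate 1 (-1.49) or 3 (-1.47).

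Bcl2, the founding pro-survival member, read 7.17, 7.45 and 7.29 in ESCs. Its probe carries the accession of 1 transcript variant, and whether it measures every variant was not settled. The d4 G+ arrays read 8.39, 8.23 and 8.54, the d5 Ghigh arrays 7.99, 8.18 and 8.68, and the d6 G+H+ arrays 8.94, 8.78 and 8.69. The groups did not overlap with ESC from d4 onwards. Bcl2 rose by 1.56 ± 0.24 in d6 G+H- (limma adjusted p = 4.74e-06) and by 1.503 ± 0.24 in d6 G+H+ (8.00e-06). It was higher by 1.08 in d4 G+ (0.00107), by 0.95 in d5 Glow (0.00402) and by 0.98 in d5 Ghigh (0.00295), all short of the fold threshold. The d6 G+H+ call was lost without ESC replicate 1 (1.44), ESC replicate 3 (1.49) or d6 G+H+ replicate 1 (1.43), and the d6 G+H- call without ESC replicate 1 (1.498), with the adjusted p under the threshold each time. With a background offset of 50 the differences were 1.37 in G+H- and 1.31 in G+H+, and neither was called.

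Bcl2l1, which protects newly formed blood cells and neurons among others, was lowest at d2. Its ESC arrays read 12.73, 13.20 and 12.70 and its d2 arrays 11.78, 11.89 and 11.93, without overlap. The difference was -1.01 ± 0.19 (limma adjusted p = 6.97e-04), short of the fold threshold. The arrays of d3 G-, d3 G+, d5 G- and d5 Glow were also all below those of ESC. The differences there were -0.67, -0.33, -0.65 and -0.72. At d6 G+H+ the arrays read 12.55, 12.72 and 12.94, a difference from ESC of -0.14 ± 0.19 with an adjusted p of 0.783. A second, dimmer probe of Bcl2l1 differed from ESC by -0.09 in d6 G+H+.

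**Figure D2:**
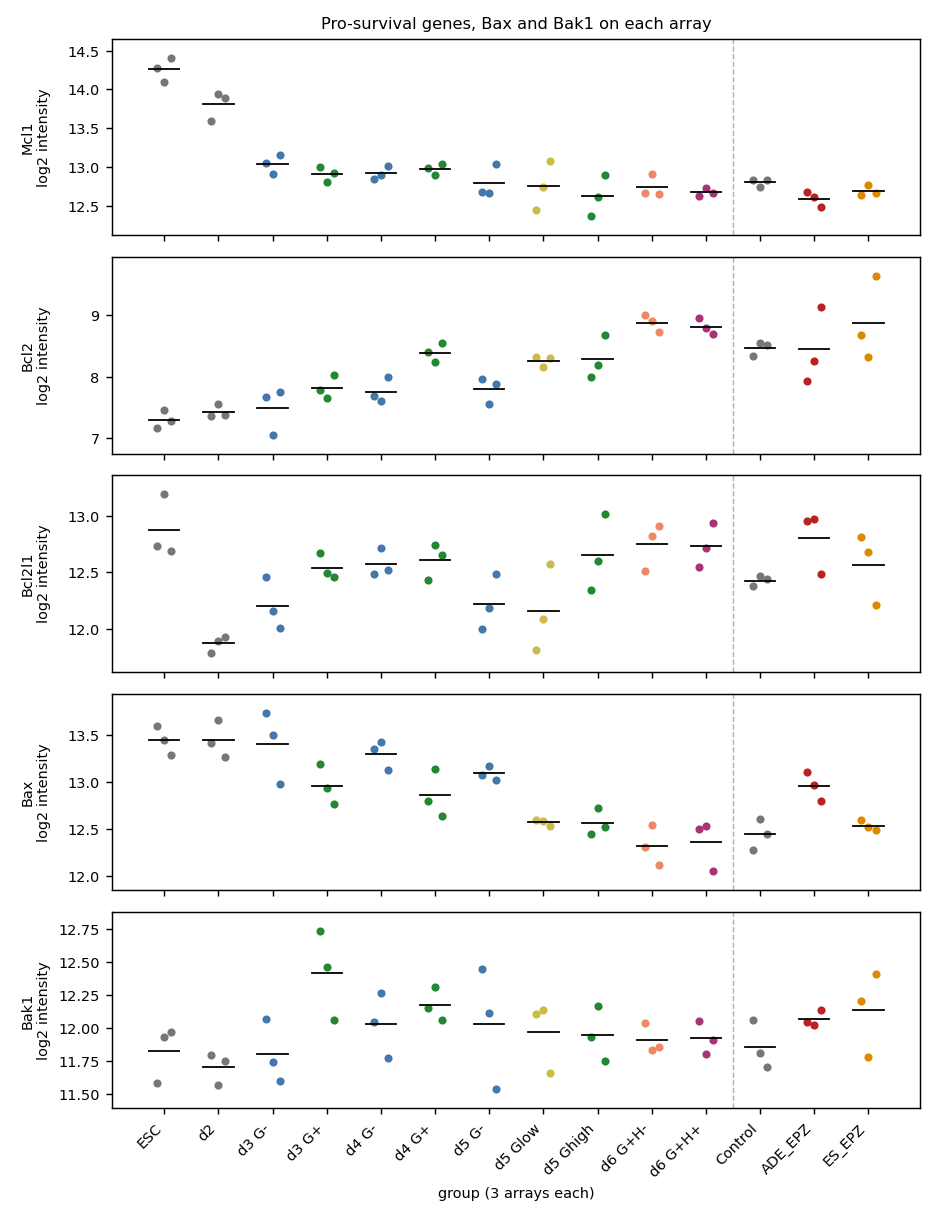
Log2 intensity (vertical axes, a separate scale for each gene) of Mcl1, Bcl2, Bcl2l1, Bax and Bak1 on every array, by group (horizontal axis), with a bar at the mean of 3 arrays and a dashed line between the untreated and the inhibitor series. Mcl1 drops from 14.26 in ESCs to 12.67 in d6 G+H+, Bcl2 climbs from 7.30 to 8.81, and Bak1 stays between group means of 11.71 and 12.42.

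Of the pore-forming genes Bax was lower in the Gsc-positive populations from d3 to d6, most at d5 and d6, and Bak1 moved little. Bax read 13.60, 13.45 and 13.29 in ESCs, 12.60, 12.59 and 12.54 in d5 Glow, and 12.50, 12.53 and 12.05 in d6 G+H+. No array of d5 Glow or d6 G+H+ reached the ESC arrays. The same held for d3 G+, d4 G+, d5 G- and d5 Ghigh, where the differences were -0.49, -0.59, -0.36 and -0.88. The d6 differences were -1.13 ± 0.17 in G+H- (limma adjusted p = 2.14e-06) and -1.09 ± 0.17 in G+H+ (3.34e-06), short of the fold threshold. Bak1 read 11.58, 11.94 and 11.97 in ESCs and 12.06, 11.81 and 11.91 in d6 G+H+, which overlap. Its largest difference from ESC was 0.59 ± 0.20 in d3 G+ (limma adjusted p = 0.0329).

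Bok followed another course, with its lowest untreated level in d5 Ghigh and its highest in d6 G+H+. It read 10.25, 10.83 and 10.09 in ESCs and 8.24, 8.75 and 9.87 in d5 Ghigh, where replicate 3 was well above the others. It then read 12.19, 10.94 and 10.01 in d6 G+H- and 12.47, 11.59 and 11.13 in d6 G+H+. The d5 Ghigh arrays were all below and the d6 G+H+ arrays all above those of ESC. The difference of d5 Ghigh from ESC was -1.44 ± 0.49 (limma adjusted p = 0.0342) and that of d6 G+H+ was 1.34 ± 0.49 (0.0414), neither of which was called. Without d5 Ghigh replicate 3 the d5 Ghigh difference was called. The replicates were uneven. On the slides of replicates 1 and 2 the d5 Ghigh difference was -2.04 and the d6 G+H- difference 1.02. On those of replicate 3, with 1 array a group, they were -0.22 and -0.08. Slide and replicate cannot be told apart here.

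Among the BH3-only genes Hrk and Pmaip1 moved in opposite directions at d6. Hrk, best known from neurons deprived of growth factor, read 7.22, 6.27 and 7.07 in ESCs and 7.33, 7.51 and 7.22 at d2. All 21 arrays of the d3 to d5 populations lay between 4.45 and 5.93, below every ESC array. Hrk was not well above background on 1 array each of d3 G+, d4 G-, d5 G- and d5 Glow, so that differences from these groups are too small. At d6 it read 9.04, 7.02 and 9.23 in G+H- and 9.05, 7.39 and 9.25 in G+H+, with replicate 2 the lowest of each. The G+H+ arrays lay above all ESC arrays, and G+H- replicate 2 overlapped with them. Hrk rose from ESC by 1.58 ± 0.45 in G+H- (limma adjusted p = 0.00751) and by 1.71 ± 0.45 in G+H+ (0.00336). On the slides of replicates 1 and 2 the G+H+ difference was 1.48, and on those of replicate 3 it was 2.18. The G+H+ call was lost without ESC replicate 2 (1.42), d6 G+H+ replicate 1 (1.47) or d6 G+H+ replicate 3 (1.37). The G+H- call was lost without ESC replicate 2 (1.28), ESC replicate 3 (1.68), d6 G+H- replicate 1 (1.27) or d6 G+H- replicate 3 (1.18). With an offset of 50 the differences were 1.33 in G+H- and 1.45 in G+H+, and in a fit to the compared groups alone the adjusted p were 0.0800 and 0.0305, so that neither was called. With the 75th percentile scaling they were 1.80 (limma adjusted p = 0.0188) and 1.94 (0.0103), again not called. In d5 G- the difference from ESC was -1.63 ± 0.45 (limma adjusted p = 0.0111).

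Pmaip1 read 10.40, 11.08 and 10.04 in ESCs and 11.05, 11.61 and 10.91 in d3 G+, its highest group. Its d5 Ghigh arrays read 9.98, 9.97 and 9.56. At d6 it read 8.66, 8.60 and 8.94 in G+H- and 8.96, 8.18 and 8.47 in G+H+. All 6 d6 arrays were below all ESC arrays. Pmaip1 fell by 1.77 ± 0.22 in G+H- (limma adjusted p = 7.74e-08) and by 1.97 ± 0.22 in G+H+ (8.10e-09), the second a 3.92-fold difference in intensity. Without ESC replicate 2 the G+H- difference was -1.49, which was not called.

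Bbc3 lay below its ESC level from d2 to d5, furthest in d3 G+ and d4 G+, and was back at that level by d6. Its ESC arrays read 12.59, 12.62 and 12.52. The d3 G+ arrays read 11.43, 10.48 and 11.03 and the d4 G+ arrays 10.82, 11.03 and 11.24, all below the ESC arrays. The arrays of d2, d3 G-, d4 G-, d5 G-, d5 Glow and d5 Ghigh were also all below them. The differences there were -0.32, -0.65, -0.55, -0.47, -1.04 and -0.91, short of the fold threshold. That of d2 had a limma adjusted p of 0.580. The d6 G+H+ arrays read 12.77, 12.53 and 12.41, which overlap with ESC. Bbc3 fell by 1.60 ± 0.21 in d3 G+ (limma adjusted p = 4.42e-07) and by 1.55 ± 0.21 in d4 G+ (6.92e-07), and differed by -0.01 in d6 G+H+. The first call was lost without d3 G+ replicate 2 (-1.35) and the second without d4 G+ replicate 1 (-1.44) or with the 75th percentile scaling (-1.45).

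Bcl2l11, which joins many death signals to the mitochondrion, read 7.35, 8.02 and 7.51 in ESCs. The d5 Ghigh arrays read 6.68, 6.57 and 6.49 and the d6 G+H- arrays 6.73, 6.91 and 6.22. Neither of these groups overlapped with ESC. The differences were -1.05 ± 0.23 (limma adjusted p = 6.70e-04) and -1.01 ± 0.23 (7.92e-04) respectively, short of the fold threshold. A dimmer Bcl2l11 probe differed from ESC by 0.16 in d6 G+H-, so that the 2 probes disagree.

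**Figure D3:**
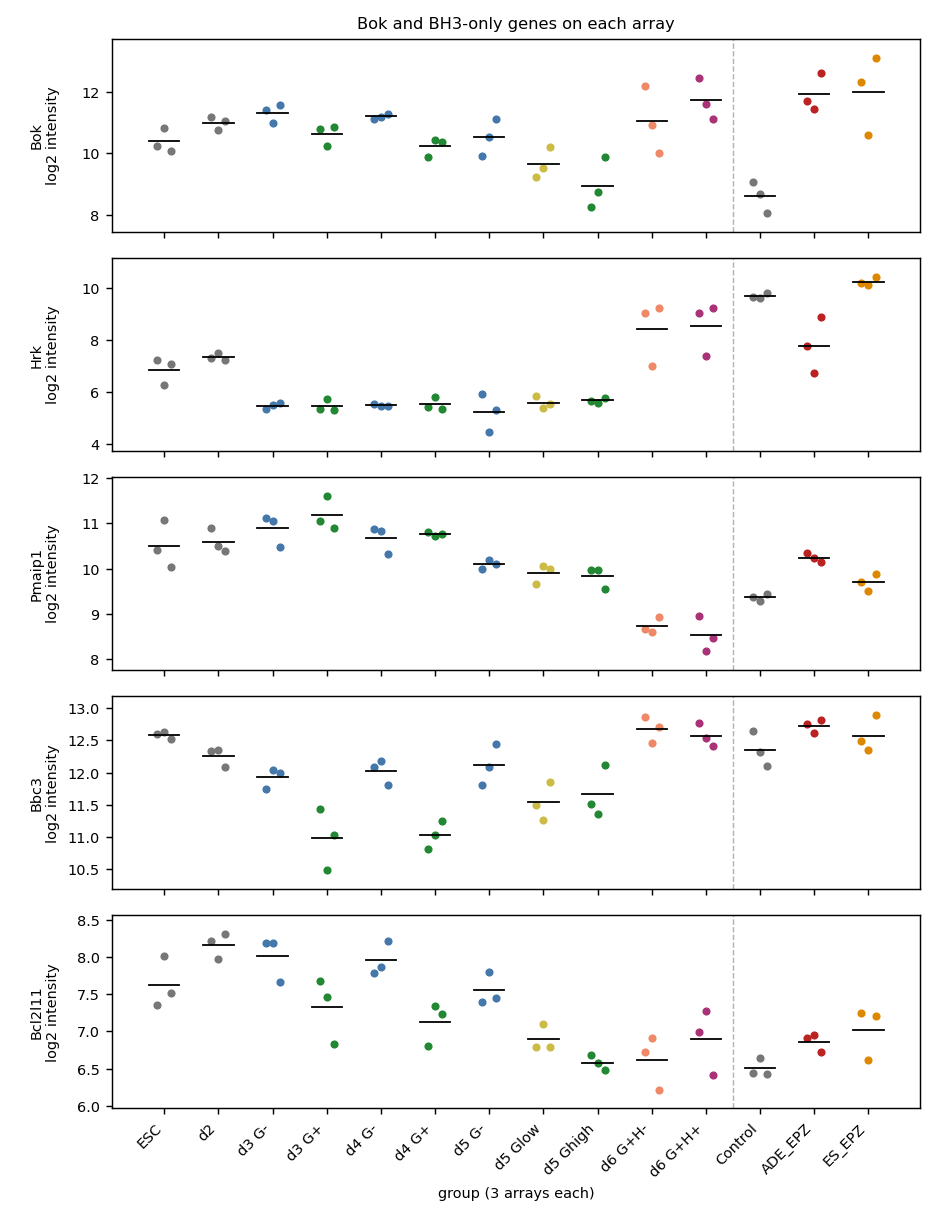
Log2 intensity (vertical axes, a separate scale for each gene) of Bok and the BH3-only genes Hrk, Pmaip1, Bbc3 and Bcl2l11 on every array, by group (horizontal axis), with a bar at the mean of 3 arrays and a dashed line between the untreated and the inhibitor series. The Bok arrays of ADE_EPZ and ES_EPZ lie above all Control arrays, and the Hrk arrays of ADE_EPZ lie below them.

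Cells sorted by Gsc on the same day differed less. Limma called 0 of the 10 members in d3 G+ against G-, in d4 G+ against G-, and in the mean of d5 Glow and Ghigh against d5 G-, where 1.8%, 2.28% and 1.7% of all genes were called. At an unadjusted p under 0.05 there were 4, 4 and 5 members, and 6930, 7461 and 7256 of all 55681 probes. Bbc3 was lower in G+ by 0.94 ± 0.21 at d3 (limma adjusted p = 0.00431) and by 1.00 ± 0.21 at d4 (0.00232), without overlap of the arrays on either day. The d3 G- arrays of Bbc3 read 11.74, 12.04 and 11.996 and the d4 G- arrays 12.09, 12.18 and 11.81. Bcl2l11 was lower in G+ by 0.83 ± 0.23 at d4 (limma adjusted p = 0.0245) and by 0.81 ± 0.20 in the d5 comparison (0.00967). For d6 G+H+ against G+H- limma called 0 of the members and 0% of all genes, and the same held for the test of whether the sort difference itself changed from d3 to d4. In neither did a member reach an unadjusted p under 0.05, which 2514 and 1619 of all probes did. The members' log2 differences between the d6 populations ran from -0.20 for Pmaip1 to 0.68 for Bok.

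Against ESC, limma also called 0 members in d2, d3 G-, d4 G- and d5 G-, where 1.73%, 2.42%, 3.21% and 4.32% of all genes were called. At an unadjusted p under 0.05 there were 3, 4, 3 and 5 members, and 8645, 10708, 10296 and 11510 of all 55681 probes.

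In the inhibitor series the members that stood out were Bok and Hrk. Bok read 9.06, 8.69 and 8.06 in Control, 11.69, 11.45 and 12.61 in ADE_EPZ, and 12.33, 10.59 and 13.12 in ES_EPZ. Every EPZ6438 array was above every Control array, and the ES_EPZ arrays were spread the most. Bok was higher than in Control by 3.31 ± 0.49 in ADE_EPZ, a 9.93-fold difference in intensity, and by 3.41 ± 0.49 in ES_EPZ, a 10.6-fold difference. Within the 3 slides, each of which held 1 array of every regimen, the ADE_EPZ differences were 3.91, 3.63 and 2.39 and the ES_EPZ differences 4.42, 4.28 and 1.52. Bok differed between the regimens by -0.09 ± 0.49. The threshold in ES_EPZ was no longer passed in a fit to the inhibitor series alone, whereas that in ADE_EPZ was. The Control arrays of Bok lay below all of d6 G+H+, in different series.

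Hrk was lower than in Control with EPZ6438 during differentiation and slightly higher with EPZ6438 before it. It read 9.67, 9.63 and 9.81 in Control, 7.76, 6.73 and 8.89 in ADE_EPZ, and 10.21, 10.11 and 10.45 in ES_EPZ. All ADE_EPZ arrays were below and all ES_EPZ arrays above the Control arrays, and the ADE_EPZ arrays were far apart. The difference from Control was -1.91 ± 0.45 in ADE_EPZ and 0.55 ± 0.45 in ES_EPZ, and that between the regimens was -2.46 ± 0.45. Within the slides, ADE_EPZ differed from Control by -0.74, -2.05 and -2.94 and from ES_EPZ by -1.56, -2.44 and -3.38. Without ADE_EPZ replicate 2 the difference from Control was -1.38, under the fold threshold. Leaving out any 1 Control array or ADE_EPZ replicate 1 gave -1.95 to -1.86, no longer past the adjusted p threshold. The thresholds were also not passed, for either difference, in a fit to the inhibitor series alone or with the 75th percentile scaling. The difference between the regimens ran from -3.01 to -1.93 without single arrays and was past the thresholds only without ADE_EPZ replicate 3.

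Pmaip1 read 9.37, 9.29 and 9.45 in Control, 10.35, 10.23 and 10.16 in ADE_EPZ, and 9.71, 9.51 and 9.88 in ES_EPZ. Its arrays did not overlap with Control in either regimen. The differences were 0.88 ± 0.22 and 0.33 ± 0.22, and within slides the ADE_EPZ difference was 0.87, 0.90 and 0.86. Bax read 12.28, 12.61 and 12.45 in Control and 13.11, 12.97 and 12.81 in ADE_EPZ, a difference of 0.52 ± 0.17. The other 6 members differed from Control by -0.21 (Mcl1) to 0.38 (Bcl2l1) in ADE_EPZ and by -0.11 (Mcl1) to 0.52 (Bcl2l11) in ES_EPZ. Bcl2 was uneven, at 7.93, 8.26 and 9.12 in ADE_EPZ and 8.68, 8.31 and 9.62 in ES_EPZ, against 8.33, 8.54 and 8.51 in Control.

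**Figure D4:**
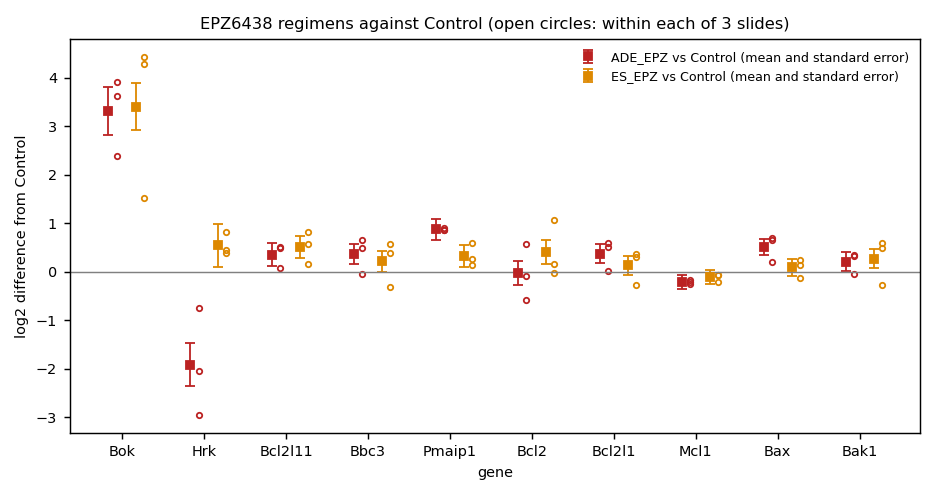
Log2 difference from Control (vertical axis) of the 10 members (horizontal axis) in ADE_EPZ (red) and ES_EPZ (orange), with squares and bars for the limma estimate and its standard error over 3 arrays a group and open circles for the difference within each slide. Bok lies near 3.31 and 3.41 in the 2 regimens, Hrk lies at -1.91 and 0.55, and the estimates for the other members lie within 1 of Control, with 1 slide above that for Bcl2 in ES_EPZ (1.08).

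Past both thresholds were Bok and Hrk in ADE_EPZ, where 1.97% of all genes were called higher and 0.801% lower, and Bok in ES_EPZ, where 0.367% were called higher. Between the regimens it was Hrk, where 0.0143% of all genes were called lower in ADE_EPZ. With no fold threshold there were 4 members in ADE_EPZ (18.1% of all genes), 1 in ES_EPZ (3.29%) and 1 between the regimens (1.13%). The arrays of 5 members lay above and those of 2 below all Control arrays in ADE_EPZ, as did 20.1% and 19.8% of all genes. In ES_EPZ 3 lay above and 0 below, against 14% and 14.2%. Since the members were chosen with these comparisons known, nothing is read from these counts. In the inhibitor series the summed level of the endoderm markers, like Bok, was higher in both regimens. On the log2 scale it was 14.1 to 14.6 in Control, 15.6 to 16.1 in ADE_EPZ and 15.4 to 16.0 in ES_EPZ. On all arrays of each group 5 of 5 markers were above background. Of them 1 was called in ADE_EPZ, Hhex with 2.23, and 0 in ES_EPZ, and their median change was 0.82 and 0.34. In the untreated series the endoderm sum was 8.09 to 8.72 in ESC, 14.1 to 15.9 in d5 Ghigh and 16.4 to 16.5 in d6 G+H+. The Bok means were 10.39 in ESC, 8.95 in d5 Ghigh (its lowest untreated) and 11.73 in d6 G+H+ (its highest untreated). The summed pluripotency level was 9.71 to 10.3 in Control, 10.9 to 11.6 in ADE_EPZ and 9.58 to 11.1 in ES_EPZ, and the summed mesoderm level 11.75 to 11.97, 11.2 to 11.4 and 11.6 to 11.7. In ADE_EPZ 1 gene of each of these lists was called, Zfp42 (pluripotency) with 1.51 and Meox1 (mesoderm) with -2.44 (limma adjusted p = 0.00231 and 2.13e-04). In ES_EPZ 0 of either list were called. The summed streak level was 14.2 to 14.5 in Control, 13.9 to 14.4 in ADE_EPZ and 14.3 to 14.5 in ES_EPZ, and in that list Mixl1, a streak transcription factor, fell by 3.34 in ADE_EPZ (limma adjusted p = 1.24e-07) and fell by 1.72 in ES_EPZ (0.00565). The part of these cells in the values of Bok and Hrk was not tested.

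Further genes of the pathway were taken from 5 lists, with 55 of 57 genes on the array. The lists were chosen with earlier results of these data known, so nothing is read from the shares called. In d6 G+H+ against ESC 3 of 55 rose and 1 fell, 5.45% and 1.82%, against 5.79% and 5.33% of all genes. The genes that rose were Xiap, a direct caspase inhibitor, by 1.82 ± 0.17 (limma adjusted p = 1.00e-10), Tnfrsf1a, a receptor of tumour necrosis factor, by 1.69 ± 0.31 (5.97e-05), and Bmf, a BH3-only gene, by 1.60 ± 0.44 (0.00480). Bid, the BH3-only gene that links death receptors to mitochondria, fell by 1.54 ± 0.15 (limma adjusted p = 2.56e-10). Without ESC replicate 3 only Xiap was called, and without d6 G+H+ replicate 2 the calls were Xiap and Tnfrsf1a. None of the 14 apoptosome and mitochondrial effector genes was called, and their median change was 0.09.

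In ADE_EPZ against Control 4 of 55 rose, 7.27% against 1.97% of all genes, and 0 fell. Nothing is read from this gap, since the lists were chosen with earlier results of these data known. The p values of these genes carry the same limit. Bmf rose by 2.10 ± 0.44 (limma adjusted p = 0.00109), from a mean of 9.45 to 11.56. The other 3 are p53 targets, of which 3 of 15 genes of the list were called. They were Cdkn1a, a cell cycle inhibitor, with 1.91 ± 0.33 (limma adjusted p = 1.70e-04), Ccng1 with 1.58 ± 0.26 (6.87e-05) and Trp53inp1 with 1.56 ± 0.27 (1.26e-04). The median change of the p53 list was 0.20. In ES_EPZ against Control 0 of 55 were called by limma, and 1, Bik, at an adjusted p of 0.05 without a fold threshold.

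The genes whose 14 group means ran most like those of the 3 widest-ranging members were sought among 5451 genes with a span of at least 1.5. For Hrk they were Dmac2l (Pearson r 0.96), Pram1 (0.95) and Asns (0.95), for Bok Npas1 (0.95), Nol4 (0.91) and 6330409D20Rik (0.90), and for Pmaip1 She (0.95), Elovl2 (0.94) and Nrg1 (0.93). The points share arrays, batches and normalisation, and the values are a description. Ordered by level, Hrk was lowest in d5 G- (5.22 ± 0.74, SD) and then in d3 G+, d3 G-, d4 G-, d4 G+, d5 Glow and d5 Ghigh (5.68 ± 0.10), neighbours that lie within their spread. ESC (6.85 ± 0.51), d2 (7.36 ± 0.15), ADE_EPZ (7.79 ± 1.08), d6 G+H- (8.43 ± 1.23) and d6 G+H+ (8.56 ± 1.02) followed, neighbours again within about 1 SD, and Control (9.71 ± 0.10) and ES_EPZ (10.26 ± 0.18) were highest. Bok was lowest in Control (8.60 ± 0.51), d5 Ghigh (8.95 ± 0.83) and d5 Glow (9.66 ± 0.50) and highest in d6 G+H+ (11.73 ± 0.68), ADE_EPZ (11.92 ± 0.61) and ES_EPZ (12.01 ± 1.295), and neighbours within each of these sets differ by less than the larger SD of the pair. The 8 groups in the middle ran from 10.23 ± 0.30 in d4 G+ to 11.33 ± 0.29 in d3 G-, in steps within the larger SD of the pair except that from d3 G+ (10.64 ± 0.33) to d2 (11.0003 ± 0.22). Orders that cross the untreated and inhibitor series cannot be told apart from batch.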

How the data were processed

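Total RNA of 14 groups was measured on 42 Agilent SurePrint G3 Mouse arrays, 3 per group. The authors deposited scanner files with the intensity of every spot (Feature Extraction 11.0.1.1 for the untreated and 12.0.1.1 for the inhibitor series) and a table of log2 values, made with limma by normexp correction (offset 10) and quantile normalisation over all arrays. Here the deposited log2 values of repeated spots were averaged to 55681 probes, and 1 mean per group was fitted with limma 3.58.1 in R 4.3.3, with Benjamini-Hochberg adjustment over all probes. The array annotation is on mm9, symbols came from RefSeq (21865 of 23171 accessions named), and promoters from RefSeq on GRCm38.p6. The number of arrays limits the precision. Members and lists were chosen with earlier results of these data known. All members are named. From the other lists up to 3 called genes per list and direction, with the largest change, were named, and Bik was named after its values were seen. Replicate numbers paired the samples, every pair of deviations correlating above 0.1, in 7 comparisons: d4 G-, d4 G+ and d6 G+H- against ESC, the d3 and d4 G+ against G-, d6 G+H+ against G+H-, and ADE_EPZ against ES_EPZ. The alternatives were other background corrections and scalings, fewer groups in the fit, a dim probe filter, slide or replicate blocks, all probes of a gene, a looser threshold and leaving out each array. The fit was tested on simulated data. The EPZ6438 comparisons were also made within slides.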

Additional observations from a re-analysis of the deposited data

Results flagged for a closer look

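Hrk differed between the EPZ6438 regimens: the log2 difference of ADE_EPZ from ES_EPZ was -2.46, and all ADE_EPZ arrays were below and all ES_EPZ arrays above the Control arrays. It is given because the 2 regimens differed under the same contrast with Control, by -1.91 ± 0.45 in ADE_EPZ and 0.55 ± 0.45 in ES_EPZ. The difference between the regimens fell short of the thresholds in 9 of 16 alternatives, among them 5 of 6 fits without single arrays. The gene was chosen with these regimens known, so no p value is given.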

How the results depend on the processing

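No called fold of a single gene changed direction under any alternative, and of these values 200 kept and 56 lost their call. Under the 75th percentile scaling 9 of the 180 differences of members changed sign, 0 of them called and all within 0.11 of 0, among them Bak1 in both d6 populations against ESC, Hrk in d3 G+ against G- and Bcl2 in ADE_EPZ against Control. Counts of called members moved as follows. At an adjusted p of 0.05 with no fold threshold they were against ESC 2 in d2, 4 in d3 G-, 6 in d3 G+ and 2 in d4 G-. They were 5 in d4 G+, 3 in d5 G-, 7 in both d5 Gsc-positive populations and 7 in d6 G+H+. For G+ against G- they were 1, 2 and 2 at d3, d4 and d5, and in ADE_EPZ 4. Other apoptosis genes, of 55, numbered 26 in d6 G+H+, 15 in ADE_EPZ and 1 in ES_EPZ. Of all genes 37.4%, 18.1% and 3.29% passed there. Nothing is read from these counts, since the lists were chosen with earlier results known. With an offset of 50 the called members were 2 in each d6 population, where Hrk and Bcl2 missed the fold threshold. With the processed signal scaled by its 75th percentile they were 2 in d3 G+, 0 in d4 G+, 2 in d5 G-, 2 in d5 Glow, 1 in ADE_EPZ and 0 between the regimens, and this scaling moved the median of all genes to -0.13 in d6 G+H-, -0.11 in d6 G+H+, -0.10 in d3 G- against ESC and -0.10 in ADE_EPZ against Control, and to 0.11 in d3 G+ against G-. In a fit to 1 series, to the compared groups, or with slide as a fixed block, 1 (Bok) was called in ADE_EPZ, 0 in ES_EPZ and 0 between the regimens, so that the calls of Bok in ES_EPZ and of Hrk were lost. In d5 Glow the count was 0 with slide as a random block, as a fixed block of the untreated series (added after the data were seen) or with the mean of all probes, and in d6 G+H- the fixed block left 2. The dim probe filter gave 1 in d5 G-, and so did the replicate block (Hrk), in a comparison where 2 of 3 pairs of deviations correlated above 0.1. The replicate block changed no other count of members, and gave 55 in place of 36 probes between the regimens. Without single arrays the counts ran from 0 to 1 in d3 G+, d4 G+ and d5 Glow, 0 to 2 in d5 G-, 1 to 2 in d5 Ghigh, 2 to 4 in d6 G+H- and d6 G+H+, 1 to 2 in ADE_EPZ and 0 to 1 between the regimens, and from 1 to 5 for other apoptosis genes in d6 G+H+. The cause of these changes was not tested. Hrk near background at d3 to d5 limits its differences there.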
